A study of Mus musculus with 4 samples.

Results

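The genes described here encode the mitochondrial ribosomal proteins of the mouse, taken as those whose symbol starts with Mrpl (large subunit) or Mrps (small subunit) followed by a digit and that had at least 10 UMIs summed over the barcodes of 6500 or more UMIs, a UMI (unique molecular identifier) marking one captured RNA molecule. All 78 genes with such a symbol met the rule, 49 of the large and 29 of the small subunit, out of 32285 genes in the matrices and 15176 with that many UMIs. The member with the fewest, Mrps2, had 2748 UMIs. The split follows the symbol, and 2 symbols do not match the place of the protein: the products of Mrps18a and Mrps30 sit in the large subunit in mammals. Mrps36 is nowadays regarded as a subunit of the α-ketoglutarate dehydrogenase complex, but its symbol meets the rule and it is counted.

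The mitochondrial ribosome translates the few messenger RNAs of the mitochondrial genome, all of which encode subunits of the respiratory chain or the ATP synthase. Its RNAs come from the mitochondrial genome, whereas its proteins are encoded in the nucleus, made in the cytosol and imported. The large subunit holds the peptidyl transferase centre and the exit tunnel, and the small subunit holds the decoding centre. CD8+ T cells enlarge their mitochondria when they are activated, and butyrate, a product of bacterial fermentation in the gut, is both a fuel for mitochondria and an inhibitor of histone deacetylases.

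All 4 libraries held activated splenic CD8+ T cells of gBT-I.CD45.1 tg mice, which carry a transgenic T cell receptor against a herpes simplex virus peptide. Splenocytes were stimulated with peptide-pulsed B6 splenocytes and LPS, split daily in IL-2, and given 0.5 mM sodium butyrate (2 libraries) or PBS as control (2 libraries) from day 3 to day 5. On day 6 the live CD8+Vα2+ fraction was sorted and sequenced, so all cells share the receptor, the activation and the sort, and the labelled difference between groups is butyrate. The replicate number stands for the mouse, 1 culture of each of 2 mice per group, all in batch 1. The age of the mice is not given in the sources used here.

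The filters kept 2059 and 2632 cells of the control libraries and 2560 and 2664 of the butyrate libraries, in libraries of 64388093 to 76522004 UMIs, with 1 to 6 barcodes shared between any pair of libraries. The cells expressed the CD8+ T cell markers Cd3d, Cd3e, Cd3g, Cd8a, Cd8b1 and Trac in every library. Their summed CPM (UMI counts scaled to a common library total) was 2927 and 3003 in control and 2403 and 2689 in butyrate. Cd3d, Cd3e and Cd3g were lower and Cd8a higher in both butyrate than in both control libraries. The groups overlapped for Cd8b1 and Trac. Of 5 myeloid markers C1qa, C1qb and Adgre1 had no UMI in any library and the list summed to 0 to 3 UMIs. For the 5 dendritic markers the control libraries held 32 and 61 UMIs and the butyrate libraries 165 and 223 (Siglech at 0 throughout), and for the pair of NK markers 293 and 524 against 908 and 1103, nearly all Klrb1c, with Ncr1 at 0 to 2. Of the B cell markers, Cd79b had 339 and 384 UMIs against 511 and 569, Cd79a 3 to 5 and Ms4a1 0 or 1. Of the 3 CD4 or regulatory T cell markers, which summed to 36 to 66 UMIs, Cd4 had 3 and 1 against 33 and 40, Cd40lg 50 and 32 against 17 and 20, and Foxp3 1 to 6, and the erythroid and platelet markers to 7 and 16 against 51 and 39. The median control cell held 21793 and 20494 UMIs by replicate, the median butyrate cell 24816 and 23628, and the median mitochondrial share of UMIs was 4.89% and 4.91% against 3.93% and 4.13%. The part of these differences in the results was not tested.

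The upstream sequences of 4 members are shown as examples: Mrps12, Mrpl10 and Mrpl22 rose most or nearly most in their subunits, and Mrpl57 fell. They do not compare genes that rose with genes that fell. The promoter of Mrpl55, which rose most in the large subunit, held no match to the motifs searched, and Mrpl57 was not the strongest fall. Each is the strand of the gene, 5′ to 3′, from RefSeq (GRCm38.p6), trimmed to the bases outside annotated exons. Capitals mark matches to the CCAAT box (CCAAT), to NRF1 (GCGCATGCG) or to the ETS family (CCGGAAG) on either strand.
Mrps12: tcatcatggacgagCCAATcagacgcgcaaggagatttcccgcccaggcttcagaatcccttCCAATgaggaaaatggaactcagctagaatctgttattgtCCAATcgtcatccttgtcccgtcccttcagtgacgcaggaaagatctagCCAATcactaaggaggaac
Mrpl10: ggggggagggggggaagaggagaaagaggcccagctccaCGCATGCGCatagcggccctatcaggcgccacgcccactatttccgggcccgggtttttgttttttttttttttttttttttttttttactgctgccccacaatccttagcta
Mrpl22: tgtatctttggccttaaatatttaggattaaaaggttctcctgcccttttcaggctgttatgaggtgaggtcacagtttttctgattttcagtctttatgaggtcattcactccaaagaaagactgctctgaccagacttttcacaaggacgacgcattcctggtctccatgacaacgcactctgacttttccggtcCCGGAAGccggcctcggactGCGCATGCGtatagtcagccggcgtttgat
Mrpl57: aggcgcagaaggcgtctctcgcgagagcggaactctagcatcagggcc
The Mrps12 stretch (chr7:28741822-28741991, minus strand) holds 4 CCAAT boxes, beginning 156, 108, 68 and 19 bases upstream of the start of transcription. Mrpl10 (chr11:97041408-97041559, plus strand) has an NRF1 match 135 bases upstream, on the opposite strand, in front of a long run of T. Mrpl22 (chr11:58171414-58171660, plus strand) has an ETS match 53 bases and an NRF1 match 33 bases upstream. No letters of the motifs searched are in the 48 bases shown of Mrpl57 (chr14:57826186-57826233, plus strand), and the ETS matches of Mrps12 and Mrpl57 that follow the start lie outside the stretches shown.

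Whether butyrate altered the transcripts of the mitochondrial ribosome was asked by comparing the 2 butyrate with the 2 control libraries over all kept cells. Most of these genes rose and few fell: 34 of 49 in the large subunit and 19 of 29 in the small subunit rose, and 4 and 2 fell. The changes were small, with a median log2 fold change of 0.27 for the large and 0.24 for the small subunit, and 13 of the 78 genes exceeded 0.5. All 78 had passed the filter on low counts. Calls are edgeR quasi-likelihood tests with a Benjamini-Hochberg adjusted p under 0.05 over all 13487 genes tested, of which 36.0% were called higher and 35.7% lower, with a median log2 fold change of -0.0079. The groups did not overlap for 66 of the 78 members, called or not, and for 85.9% of all genes tested, so that the members' share was near the background. Every called gene, member or not, was without overlap. The log2 ratio had the same sign in both mice for 69 of the 78. Genes without overlap have the same sign by construction. No share over all genes was taken for the sign, so this count is not a result about the members. With 2 libraries per group the p-values rest on spread pooled over genes and do not carry over to other mice.

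The scaling sets how many of these genes pass in each direction. TMM (trimmed mean of M-values) centres the bulk of genes near no change. With library totals alone the median of all genes moved to -0.21, with 25.2% called higher and 49.8% lower, and the large subunit then had 22 genes higher and 14 lower (median 0.07) and the small subunit 11 higher and 9 lower (median 0.042). Of the 53 genes that rose, 33 stayed higher with library totals, 20 no longer passed and none was called lower, although 8 of the 20 had log2 fold changes below 0. The 6 genes that fell stayed lower, and 17 of the 19 uncalled genes became lower. The medians of both subunits were above the median of all genes under either scaling. The scaling moves all genes by nearly the same amount, so this order could not have changed and is no test of it.

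**Figure D1:**
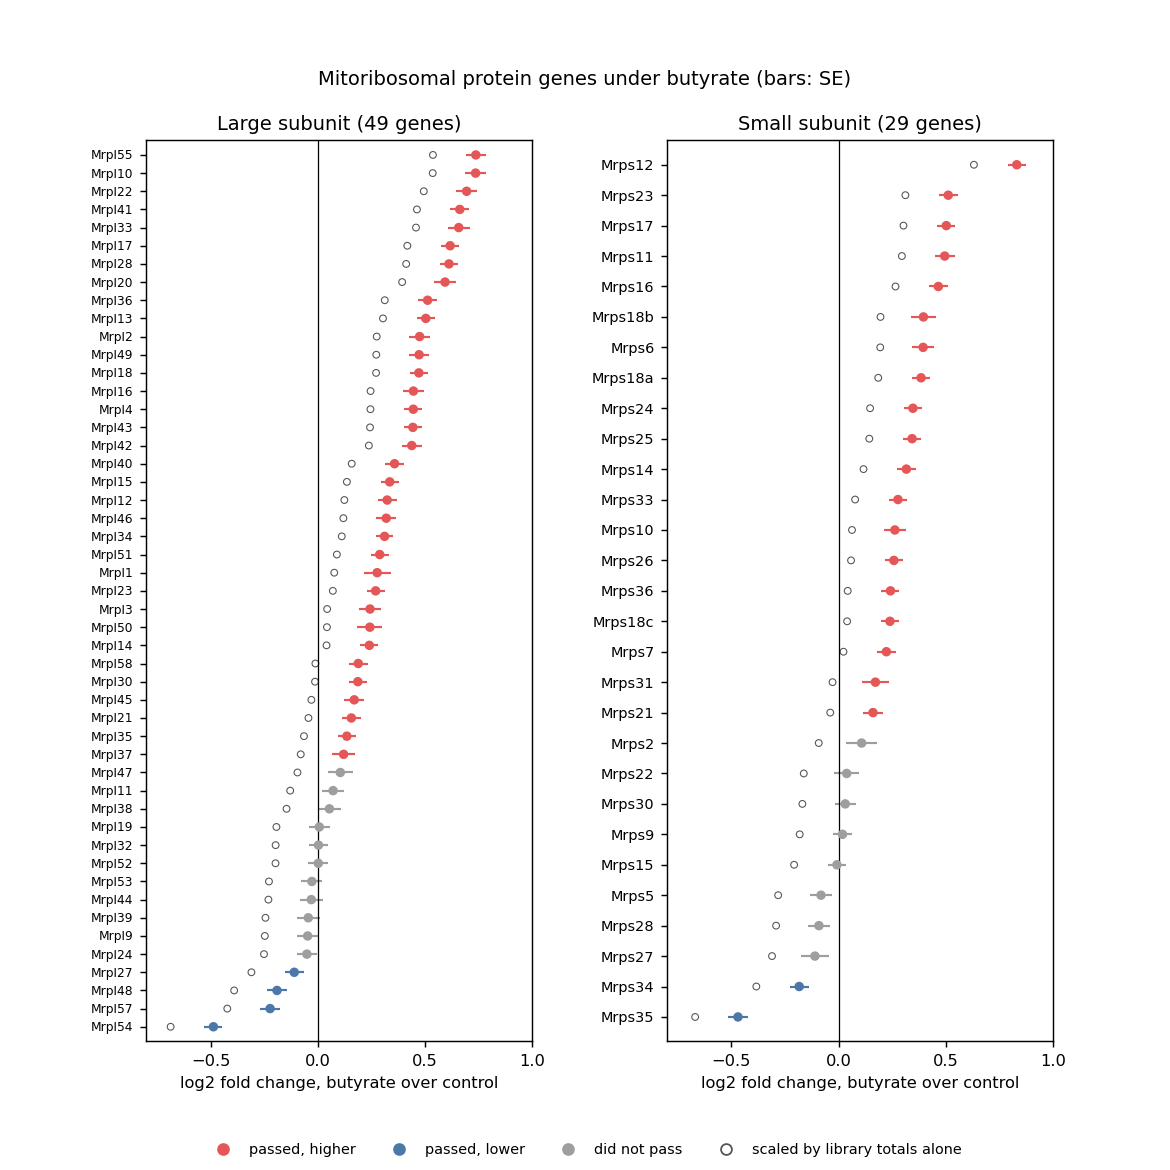
Log2 fold change of each of the 78 genes in butyrate over control (x axis), large subunit left and small subunit right, with the standard error as bars. Filled circles are the TMM-scaled values, coloured by the edgeR call, and open circles the values with library totals alone, which lie lower for every gene and below 0 for 8 of the genes that passed as higher. Values run from -0.49 for Mrpl54 to 0.83 for Mrps12.

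Levels below are TMM-scaled CPM, given in the order control replicate 1, control replicate 2, butyrate replicate 1 and butyrate replicate 2. Mrps12, the counterpart of the bacterial protein at the decoding centre, showed the largest rise of all 78. It was at 77.4, 79.6, 139.8 and 139.5 CPM, which is 0.83 ± 0.04 on the log2 scale (SE; edgeR adjusted p = 1.6e-10). The butyrate libraries were close to each other and far above both controls. The gene (ENSMUSG00000045948) lies on chromosome 7 at 28739641 to 28741820 in GRCm38, on the minus strand. Among cells thinned to 8000 UMIs, 44.8%, 47.0%, 62.3% and 62.5% held at least 1 Mrps12 UMI.

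In the large subunit the leading genes included proteins of the stalk base and the exit tunnel. Mrpl55, which has a counterpart in bacteria, was at 48.4, 51.8, 85.1 and 82.1 CPM (0.74 ± 0.05, edgeR adjusted p = 2.5e-09). Mrpl10, at the base of the stalk that carries the Mrpl12 copies, was at 33.6, 34.6, 56.3 and 57.4 CPM (0.74 ± 0.05, edgeR adjusted p = 2.3e-09). In both genes the lowest butyrate library stood well above the highest control library. Mrpl22, which lines the exit tunnel, was at 35.8, 36.5, 60.4 and 56.7 CPM (0.69 ± 0.05, edgeR adjusted p = 6.8e-09). These 3 genes lie on chromosome 11, Mrpl22 at 58171661 to 58179565, Mrpl55 at 59202486 to 59206134 and Mrpl10 at 97041560 to 97049213, all on the plus strand. Mrpl41, a protein specific to mitochondria, was at 49.6, 49.7, 78.5 and 78.9 CPM, a log2 fold change of 0.66 ± 0.04. Mrpl33, a small protein near the exit site for transfer RNA, was at 282, 268, 454 and 415 CPM, a log2 fold change of 0.66 ± 0.05. Mrpl17, which lies near the mouth of the tunnel, was at 87.9, 88.2, 134 and 136 CPM, a log2 fold change of 0.62 ± 0.04. All 6 remained higher with library totals alone, at 0.42 to 0.54.

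Other genes with a set role in the large subunit moved less. Mrpl12, the stalk protein that recruits translation factors, was at 217, 223, 282 and 269 CPM and rose by 0.32 ± 0.04 on the log2 scale (edgeR adjusted p = 8.3e-06). Mrpl11, its neighbour at the stalk base, was at 56.2, 61.8, 62.6 and 61.5 CPM and did not pass (0.07 ± 0.05, edgeR adjusted p = 0.21). Within the stalk region the base protein Mrpl10 therefore had the largest fold change, followed by Mrpl12, while the groups overlapped for Mrpl11. Mrpl3, near the peptidyl transferase centre, was at 32.4, 35.5, 40.5 and 40.0 CPM and rose by 0.24 ± 0.05. Mrpl58, a peptidyl-tRNA hydrolase built into the subunit that can free stalled ribosomes, was at 103, 108, 118 and 122 CPM and rose by 0.19 ± 0.04, but was at -0.01 with library totals alone. Mrpl45, which sits at the tunnel exit and anchors the ribosome at the inner membrane, was at 49.2, 51.2, 56.1 and 56.9 CPM and rose by 0.17 ± 0.05, but was at -0.03 with library totals alone. Mrpl44, which has an RNase III-like fold, was at 25.7, 27.0, 25.3 and 26.4 CPM and did not pass (-0.03 ± 0.05).

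The 4 large-subunit genes that fell did so by less than the leading genes rose. Mrpl54 was at 219, 215, 157 and 152 CPM, which is -0.49 ± 0.04 on the log2 scale (edgeR adjusted p = 6.1e-08). Both butyrate libraries lay well under both controls, and the share of thinned cells with an Mrpl54 UMI was 82.6%, 81.9%, 68.2% and 66.2%. The gene lies on chromosome 10 at 81264713 to 81266934, on the minus strand. Mrpl57 was at 138, 136, 123 and 112 CPM (-0.22 ± 0.05), and Mrpl48 at 57.2, 57.4, 49.1 and 51.4 CPM (-0.19 ± 0.05). Mrpl27, whose bacterial counterpart reaches towards the peptidyl-tRNA, was at 63.5, 65.8, 58.8 and 61.0 CPM (-0.11 ± 0.05, edgeR adjusted p = 0.041) and passed by the smallest margin of the 6 genes that fell. Mrpl54, Mrpl57 and Mrpl48 belong to the proteins with no bacterial counterpart.

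In the small subunit, Mrps12 was followed by Mrps23, Mrps17, Mrps11, Mrps16 and Mrps18b. Mrps23, specific to mitochondria, was at 75.8, 79.7, 109.7 and 112 CPM, a log2 fold change of 0.51 ± 0.04. Mrps17 was at 79.2, 81.4, 115 and 113 CPM (0.50 ± 0.04), and Mrps11, a protein of the platform, at 45.5, 43.9, 64.0 and 62.0 CPM (0.49 ± 0.05). Controls and butyrate libraries stood apart in all 3. Mrps16 was at 261, 272, 362 and 374 CPM (0.47 ± 0.04). All 3 Mrps18 genes, which are related to each other and of which only Mrps18c is counted below as the bacterial counterpart, rose: Mrps18a was at 73.6, 75.0, 98.4 and 95.7 CPM (0.38 ± 0.04), Mrps18b at 48.8, 56.0, 69.3 and 68.8 CPM (0.40 ± 0.06), and Mrps18c at 131, 132, 157 and 153 CPM (0.24 ± 0.04). Mrps18c no longer passed with library totals alone (0.04). Mrps36 was at 99.95, 96.03, 117 and 115 CPM (0.24 ± 0.04, and 0.04 without passing with library totals alone).

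In the small subunit 2 genes fell and 8 did not pass. Mrps35 was at 40.3, 40.1, 29.4 and 28.6 CPM, which is -0.47 ± 0.05 on the log2 scale (edgeR adjusted p = 5.0e-07), and the share of thinned cells with a UMI was 29.1%, 29.3%, 19.99% and 19.1%. It lies on chromosome 6 at 147042764 to 147073991, on the plus strand. Mrps34, a protein specific to mitochondria that is needed for a stable small subunit, was at 88.6, 93.3, 81.5 and 78.7 CPM (-0.18 ± 0.04, edgeR adjusted p = 0.0017). Mrps22, mutated in some inherited cardiomyopathies, was at 21.3, 23.4, 22.7 and 23.3 CPM and did not pass (0.04 ± 0.06). Mrps30 was at 31.5, 32.1, 32.4 and 32.6 CPM and did not pass (0.03 ± 0.05), and both were below 0 with library totals alone (-0.16 and -0.17), where they were called lower.

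**Figure D2:**
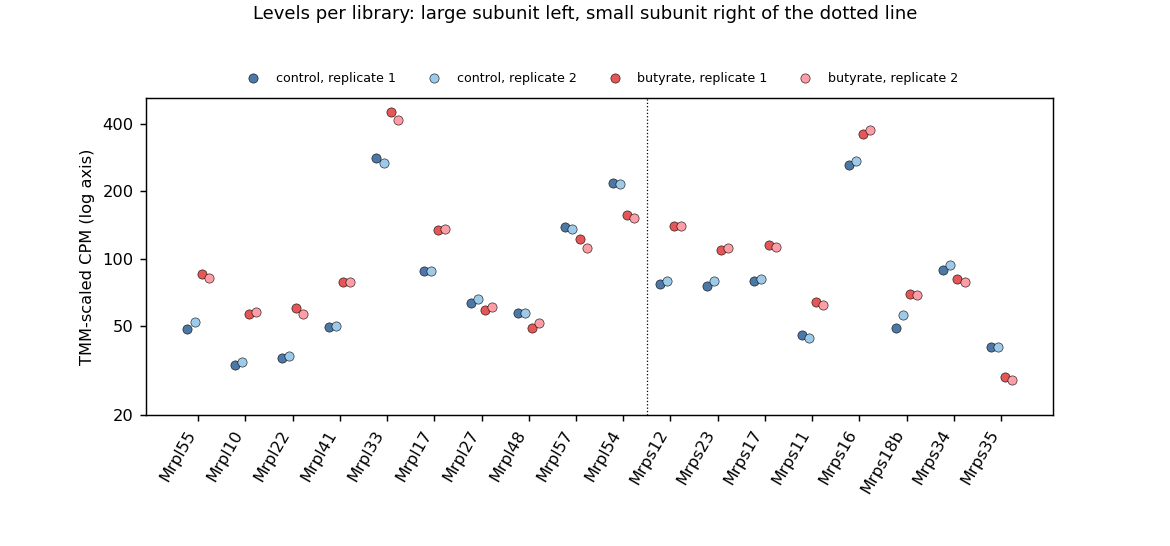
TMM-scaled CPM (log axis) of the leading risers and of all genes that fell, 1 point per library, large subunit left and small subunit right of the dotted line. In the genes that rose both red butyrate points lie above both blue control points, as for Mrps12 (139.8 and 139.5 against 77.4 and 79.6), and in the 6 genes that fell they lie below, as for Mrpl54 (157 and 152 against 219 and 215).

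Members were also divided by origin, into those with a counterpart in bacterial ribosomes and those found only in mitochondrial ribosomes. Of 46 with a bacterial counterpart 34 rose and 1 fell (Mrpl27), with a median log2 fold change of 0.29. Of 31 specific to mitochondria 18 rose and 5 fell, with a median of 0.17, and Mrps36 was put in neither class. With library totals alone the counts were 23 higher and 10 lower (median 0.09) against 10 higher and 13 lower (median -0.03), so the sign of the second median depends on the scaling. The difference between the classes was not tested.

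Some of these loci overlap other genes, and whether counting used strand is not given in the sources used here. Mrpl46 and Mrps11 overlap each other on opposite strands and both rose. By GENCODE M21, 26 of the 78 genes overlap another protein-coding gene, 4 of them on the same strand (Mrpl53, Mrps6, Mrps24 and Mrps34). Values of these 4 genes may hold reads of the neighbour under any strand setting. For genes overlapped on the opposite strand only, this would hold only if counting ignored strand. Mrpl33, Mrpl27, Mrpl48, Mrps11, Mrps18a, Mrpl44 and Mrps30, named above, are of this second kind. The genes Mrps12, Mrpl55, Mrpl10, Mrpl22, Mrpl41, Mrpl17, Mrpl54 and Mrps35 are not among the 26.

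Per cell, the summed transcripts moved by a modest amount. The large-subunit genes made up a median 0.422%, 0.443%, 0.493% and 0.485% of a cell's UMIs, and the small-subunit genes 0.224%, 0.236%, 0.253% and 0.252%. After each cell was thinned to 8000 UMIs, which left out 54 to 112 cells per library, the median cell held 34, 35, 39 and 38 large-subunit and 18, 19, 20 and 20 small-subunit UMIs. Both butyrate medians were above both control medians in each case. Barcodes of 10 to 100 UMIs, which mostly hold free RNA, had shares of the same size, here pooled over barcodes and not medians. These were 0.497%, 0.495%, 0.547% and 0.511% for the large subunit and 0.267%, 0.273%, 0.289% and 0.272% for the small subunit. Pooled over kept cells the shares were 0.466%, 0.482%, 0.514% and 0.503% for the large and 0.248%, 0.257%, 0.269% and 0.265% for the small subunit. The part of free RNA in the per-cell values was not tested. No test was made on these sums. In the sums over cells, TMM-scaled, the large subunit held 4375, 4470, 5518 and 5382 CPM and the small subunit 2332, 2386, 2883 and 2842 CPM.

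**Figure D3:**
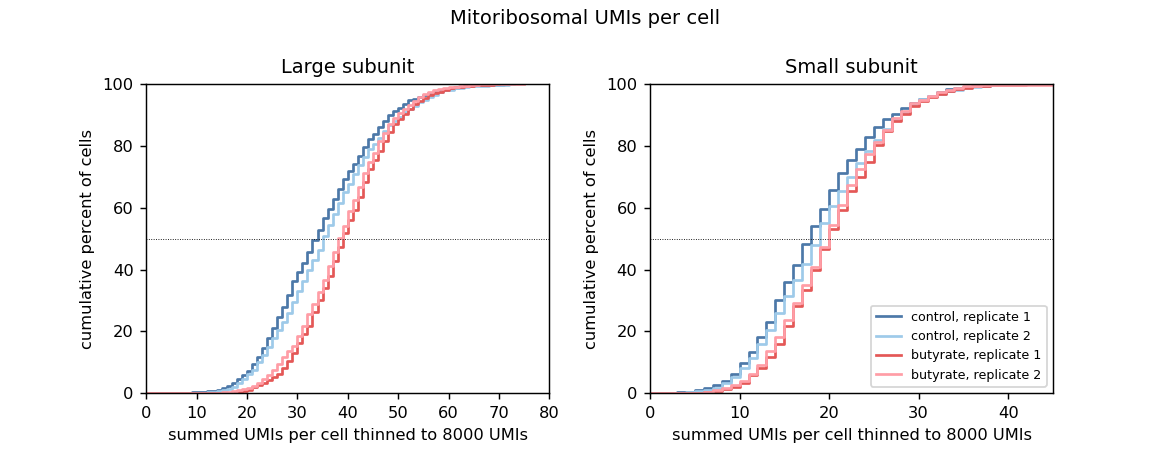
Cumulative percent of cells (y axis) by the summed large-subunit (left) or small-subunit (right) UMIs per cell thinned to 8000 UMIs (x axis), 1 line per library. The butyrate lines lie to the right of the control lines at the dotted line of 50%, with medians of 39 and 38 against 34 and 35 UMIs for the large subunit and 20 and 20 against 18 and 19 for the small subunit.

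The same comparison was made in cells without and with UMIs of Mki67 or Top2a, genes expressed in cycling cells, after thinning to 8000 UMIs. Cells without either made up 14.5%, 15.3%, 14.2% and 15.6% of the thinned cells. Before thinning their median depth was 13169 and 13230 UMIs in the control libraries but 20777 and 19272 in the butyrate libraries, against 22852 to 25990 in cells with them, so the class without them also differed in depth between groups. In cells without them 26 large-subunit genes rose and 5 fell (median 0.41) and 18 small-subunit genes rose and 1 fell (median 0.35), where 22.8% of all 9387 genes tested were called higher and 21.6% lower by edgeR. In cells with them 32 and 17 rose and 2 and 2 fell (medians 0.27 and 0.23), where 31.5% and 30.7% of 11836 genes were called. In both classes 38 members rose, and none was called in opposite directions. No share over all genes was taken for these joint counts, so they cannot be read as a result about the members. With library totals alone, cells with Mki67 or Top2a UMIs had 21 genes higher and 11 lower in the large subunit and 11 higher and 9 lower in the small subunit. The share of all genes called in this class was not taken with library totals.

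Mrps12 rose in both classes. It was at 47.6, 51.1, 96.9 and 99.3 CPM in cells without Mki67 and Top2a UMIs (0.99 ± 0.12, edgeR adjusted p = 4.0e-08) and at 74.4, 80.1, 143 and 141 CPM in cells with them (0.88 ± 0.05, edgeR adjusted p = 2.6e-12). Butyrate libraries stood far above controls in either class. Mrpl54 fell in both, by -0.50 ± 0.10 and -0.45 ± 0.05, and Mrps35 by -0.59 ± 0.15 and -0.49 ± 0.08. The difference between the classes did not pass for Mrps12 (0.06 ± 0.11), Mrpl54 (-0.10 ± 0.08) or Mrps35 (-0.15 ± 0.15). These differences come from a joint fit of both classes. CPM and fold changes per class, here and below, come from a separate fit of each class with its own scaling. The CPM of the classes are thus not on the same scale, and the fold changes need not subtract to the difference.

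The butyrate effect itself differed between the classes for 17 of the 78 genes, 10 with a higher and 7 with a lower value in cells without the cycling transcripts, beside 6.76% and 9.72% (16.5% in all) of the 11401 genes tested, by the interaction term of an edgeR fit with library as a term. This balance depends on the scaling: with library totals alone the difference was above 0 for 14 large-subunit and 13 small-subunit genes and below 0 for 4 and 0. No share over all genes was taken for this term with library totals, so those counts cannot be read as a result about the members. Only Mrpl20 and Mrpl12 of the 17 passed in all 6 alternatives tried for this term. Mrpl20 was at 145, 157, 318 and 306 CPM in cells without and 219, 243, 363 and 350 CPM in cells with them, a difference of the log2 fold changes of 0.38 ± 0.08 (edgeR adjusted p = 6.7e-04). Mrpl12 was at 115, 121, 220 and 202 CPM in cells without and 213, 224, 295 and 281 CPM in cells with them, a difference of 0.38 ± 0.08 (edgeR adjusted p = 0.0015). In the joint fit, control cells without the cycling transcripts were below control cells with them in both genes. The log2 difference was -0.43 ± 0.06 for Mrpl20 and -0.70 ± 0.06 for Mrpl12. For Mrpl9, Mrpl24 and Mrpl32 the difference of the butyrate effect was below 0. Mrpl24 was at 92.7, 91.6, 60.5 and 59.4 CPM in cells without and 56.4, 62.1, 53.2 and 57.2 CPM in cells with these transcripts. Its difference was -0.56 ± 0.12 (edgeR adjusted p = 9.7e-04).

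Levels also differed between the classes within a treatment. In control, 19 members were higher and 29 lower in cells without Mki67 and Top2a UMIs than in cells with them, where 25.3% and 22.2% of all genes were called by edgeR, and in butyrate 11 were higher and 13 lower (11.3% and 12.4%). Mrpl12 was the lowest of them in control (log2 difference -0.70 ± 0.06) and Mrpl32 the highest (0.92 ± 0.08). For both, the difference in butyrate had the same sign and was smaller (-0.31 and 0.39).

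**Figure D4:**
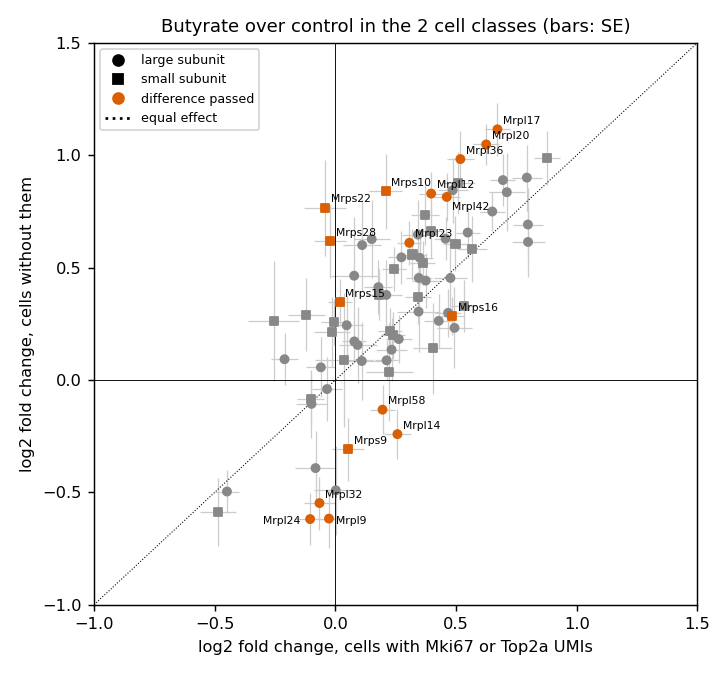
Log2 fold change of butyrate over control for each of the 78 genes in cells with Mki67 or Top2a UMIs (x axis) and in cells without them (y axis), with standard errors; circles are large-subunit and squares small-subunit genes. Orange marks the 17 genes whose effect differed between the classes by the interaction test, 10 above and 7 below the dotted line of equal effect; most genes lie right of and above 0 in both classes.

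The rest of the machinery for mitochondrial translation was followed in gene lists and read from the same fit, in which 36.0% of all genes were called higher and 35.7% lower. Of 5 ribosomal subunits named otherwise, 3 rose and none fell (median 0.19, but -0.01 with library totals alone). Dap3, a GTP-binding protein of the small subunit, was at 43.9, 46.9, 70.9 and 73.7 CPM and rose by a log2 fold change of 0.67 ± 0.05, and Aurkaip1 was at 153, 156, 196 and 193 CPM and rose by 0.33 ± 0.04. Gadd45gip1 rose by 0.19 ± 0.04 but was at -0.01 with library totals alone, while Chchd1 did not pass (0.08 ± 0.04, but called lower at -0.12 with library totals alone). 

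Assembly factors, which fold and modify the ribosomal RNA or join the subunits, were mixed: 13 of 26 rose and 6 fell (median 0.14, but -0.06 with library totals alone, where 5 were higher and 10 lower). Noa1, a GTPase for small-subunit assembly, was at 15.9, 17.2, 23.1 and 22.7 CPM (0.47 ± 0.06), and Mpv17l2, an inner membrane protein needed for assembly, at 31.5, 33.1, 43.1 and 45.4 CPM (0.45 ± 0.05). The RNA methyltransferases Mettl15 and Trmt61b rose by 0.64 ± 0.09 and 0.61 ± 0.08 from 3.87 to 5.86 CPM in control. Of 15 translation factors and related proteins 7 rose and 6 fell (median 0.13, but -0.07 with library totals alone). Tufm, the elongation factor that brings aminoacyl-tRNA, was at 58.6, 60.6, 80.9 and 80.9 CPM (0.44 ± 0.04), and its exchange factor Tsfm rose by 0.34 ± 0.05. Slirp, an RNA-binding protein that stabilises mitochondrial messengers, rose by 0.57 ± 0.05, whereas Oxa1l, which inserts the new proteins into the inner membrane, fell to -0.29 ± 0.05.

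Of 20 mitochondrial aminoacyl-tRNA synthetases 3 rose and 5 fell (median -0.03, but 0.09 with every cell thinned to 8000 UMIs). None was higher and 12 were lower with library totals alone (median -0.23). Iars2, for isoleucine, was at 31.9, 33.6, 21.1 and 19.4 CPM (-0.70 ± 0.06). Wars2 (-0.99 ± 0.13) and Sars2 (-0.46 ± 0.08) fell too, and Rars2 rose (0.33 ± 0.06, no longer passing with library totals alone). Of 19 genes for transcription, RNA processing and replication in mitochondria 8 rose and 4 fell (median -0.0043, but 0.08 with every cell thinned to 8000 UMIs). The counts were 2 higher and 10 lower with library totals alone (median -0.20). Polg, the DNA polymerase of mitochondria, was at 10.7, 10.5, 5.95 and 5.65 CPM (-0.87 ± 0.08). Hsd17b10 (0.47 ± 0.05), Top1mt (0.50 ± 0.08) and Ssbp1 (0.28 ± 0.04, not passing with library totals alone) rose.

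Of the 13 protein genes of the mitochondrial genome, whose messengers the mitochondrial ribosome translates, 1 rose and 7 fell (median -0.16). With library totals alone none was higher and 12 were lower (median -0.35). The gene that rose was mt-Co1. mt-Cytb was at 4503, 4459, 3744 and 3827 CPM (-0.24 ± 0.04), mt-Nd2 at 2287, 2286, 1907 and 1981 CPM (-0.23 ± 0.04), mt-Nd3 fell as well (-0.24 ± 0.05), and mt-Nd6, the gene on the other strand, was at 56.5, 48.99, 33.5 and 30.03 CPM (-0.73 ± 0.08). Cells were kept only below 10% mitochondrial UMIs, a limit that removed 217 and 295 control and 63 and 92 butyrate barcodes, and with a limit of 5% the median was 0.02 with 2 genes higher and 2 lower. Without the mitochondrially encoded genes in the sums, an alternative added after the data were seen, all 78 members kept their calls.

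Among 9 regulators of mitochondrial biogenesis, of which Ppargc1a had too few UMIs to test, 1 rose and 5 fell (median -0.18, and -0.38 with library totals alone, where 6 were lower). Myc, which drives growth and ribosome production in activated T cells, was at 79.98, 73.6, 169.6 and 153 CPM (1.07 ± 0.06, edgeR adjusted p = 5.5e-09). Gabpa, the DNA-binding subunit of the ETS factor also called NRF-2, was at 21.0, 22.2, 16.1 and 17.1 CPM (-0.38 ± 0.06). Yy1 (-0.26 ± 0.04) and Nrf1 (-0.21 ± 0.05) also fell. For scale, 64 of 81 cytosolic ribosomal protein genes rose and 2 fell (median 0.28), and 54 of 80 nuclear genes of the respiratory chain rose and 10 fell (median 0.25). With library totals alone these counts were 37 higher and 12 lower (median 0.08) and 32 higher and 25 lower (median 0.05). In cells without Mki67 and Top2a UMIs, however, 23 of 80 cytosolic ribosomal genes rose and 23 fell. Of 78 respiratory chain genes tested there 47 rose and 3 fell, where 22.8% of all genes were called higher and 21.6% lower. The difference between the classes was below 0 for 72 of 81 cytosolic ribosomal, 9 of 80 respiratory chain and 7 of 78 mitoribosomal genes. It was above 0 for 3, 20 and 10 of them. Beside 9.72% of all genes below 0 and 6.76% above, the mitoribosomal count below 0 was near the background.

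Binding sequences for these factors were searched on both strands in the 250 bases before and 50 bases after each start in the RefSeq promoter table, in which 69 of the 78 members were found. Shares are given in the order members, tested genes and all 32851 promoter entries. The first 2 count genes with a match in any of their entries, and the third counts entries, so the third is not in the same unit. The ETS motif CCGGAAG was present in 37.7% of members, 20.6% of tested genes and 8.86% of entries. For NRF1 (GCGCATGCG) the shares were 10.1%, 4.17% and 1.75%, and for YY1 (AAGATGGCG) 11.6%, 3.57% and 1.40%. The E-box CACGTG, bound by MYC among others, was in 7.25%, 11.5% and 7.15%, and CCAAT, which is short and frequent, in 39.1%, 43.1% and 37.4%. No motif in this set contains another. Of the 26 members with an ETS match 19 rose and 3 fell (median 0.27), and of the 43 without it 31 rose and none fell (median 0.26). With an E-box 5 of 5 rose (median 0.48) and without it 45 of 64 (median 0.26). With a YY1 match 7 of 8 rose (median 0.37) and without it 43 of 61 (median 0.26), and with an NRF1 match 4 of 7 rose (median 0.40) and without it 46 of 62 (median 0.26). With CCAAT 20 of 27 rose and without it 30 of 42 (medians 0.26 and 0.26). The calls of all tested genes with and without each motif were not counted, so these counts cannot be read as a result about the motifs. A match is a description of letters and does not show binding.

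The short stretch in front of Mrps12 ends at another gene. Sars2, the mitochondrial seryl-tRNA synthetase, starts 172 bases away on the opposite strand, so that the 4 CCAAT boxes printed above lie between both starts. While Mrps12 rose by 0.83, Sars2 was at 10.9, 11.2, 8.50 and 7.56 CPM and fell (-0.46 ± 0.08, edgeR adjusted p = 6.2e-05). In all, 18 members have a protein-coding neighbour that starts within 1000 bases on the opposite strand and runs the other way. Of the 12 members among them that rose, the neighbour rose in 3, fell in 6 and was not called in 3. The neighbours that rose include Lrrc46, whose counts were close to the floor (0.037 to 0.357 CPM). Both genes of a pair rose in 16.7%, both fell in 16.7% and they moved in opposite directions in 33.3% of these 18 pairs, beside 14.4%, 14.8% and 20.2% of all 613 such pairs with both genes tested.

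Opposite movement included Mrps18b and Ppp1r10, a regulator of protein phosphatase 1, whose starts are 45 bases apart: Ppp1r10 was at 62.5, 58.0, 35.2 and 33.3 CPM (-0.82 ± 0.05) while Mrps18b rose by 0.40. Likewise Ncapd2, a condensin subunit 100 bases from Mrpl51, was at 95.5, 87.8, 56.0 and 58.4 CPM (-0.68 ± 0.05) while Mrpl51 rose by 0.29. Mrpl49 rose with Fau (0.47 and 0.35 ± 0.05), which encodes a cytosolic ribosomal protein, but Mrpl57 fell together with Ska3 (-0.22 and -0.61 ± 0.06) and Mrpl54 with Apba3 (-0.49 and -0.28 ± 0.08). The neighbour of Mrpl10, Lrrc46, was at 0.037 to 0.357 CPM, too low to compare. It was nevertheless called higher (2.18 ± 0.46, edgeR adjusted p = 5.5e-04) and is counted above among the pairs in which both genes rose. These pairs were chosen for description after their values were seen, and without known strand settings reads of overlapping transcripts cannot be told apart.

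**Figure D5:**
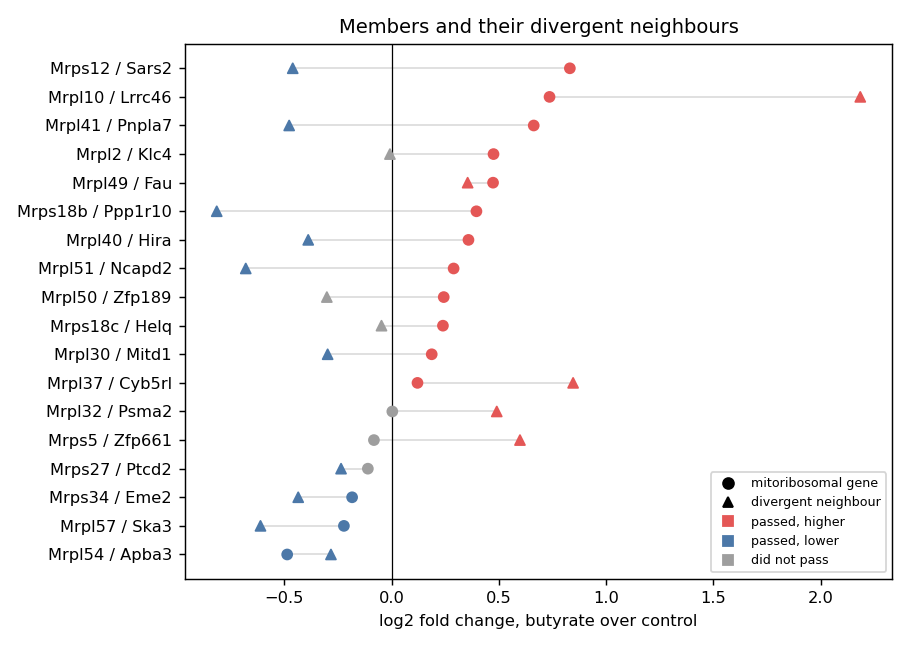
Log2 fold change (x axis) of the 18 members with a divergent protein-coding neighbour (circles) and of that neighbour (triangles), joined by a grey line, coloured by the edgeR call. In 6 pairs a red circle stands opposite a blue triangle, as in Mrps12 (0.83) and Sars2 (-0.46), and in 3 pairs both are blue, as in Mrpl57 (-0.22) and Ska3 (-0.61).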

How the data were processed

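UMI counts per gene and droplet barcode were deposited by the authors as unfiltered matrices of 4 libraries (10x 3' chemistry), made with Cell Ranger 4 on mm10 per the submitters' processing notes, which also name Seurat 4.3. For the annotation release, intron counting and strand use nothing is given in the sources used here. Of these counts, barcodes were kept as cells with at least 10% of the 99th percentile of the top 3000 barcodes, at least 500 genes and under 10% mitochondrial UMIs. No caller of doublets was run. Instead, an alternative left out the 2% of cells with the most UMIs. Summing these counts over a library's cells gave 4 columns, which were compared by edgeR 4.0.16 under R 4.3.3 (TMM, filterByExpr, robust quasi-likelihood F test, treatment as the only term), adjusted by Benjamini-Hochberg over all genes tested with a threshold of 0.05. Standard errors were taken as the absolute log2 fold change over the root of F. Cells were split by Mki67 and Top2a after thinning to 8000 UMIs (seed 1), summed per library and class, and fitted per class and, with library as a term, for the class difference and the interaction.

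Same-numbered libraries come from the same mouse, per the labels, so the numbers pair them. Their deviations from the group means correlated at 0.059 over 13487 genes and 0.171 over the 78 members. The members and the gene lists were chosen with earlier results of these data known. Genes named with values per library are, in each subunit, the 6 that rose most and up to 6 that fell most among those called without overlap, genes with a set role, and up to 4 genes with the smallest p in each list. One B cell marker is not reported here. Coordinates come from GENCODE M21 and promoters from RefSeq (GRCm38.p6). Divergent neighbours and overlaps were added after the data were seen. Simulated counts (13244 genes) gave calls for 92.0%, 73.5%, 75.5% and 85.7% of genes changed by log2 -1, -0.5, 0.5 and 1, and for 0.061% of unchanged genes. In the simulation 13047 genes were unchanged, rises and falls were balanced, and all genes had the same dispersion. In the data 36.0% of genes were called higher and 35.7% lower. The simulation therefore checks the code and does not give the error rate of the calls reported here. Alternatives were library totals, DESeq2 1.42.0, other filters on genes and cells, thinning, the mouse as a block and each library left out.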

Additional observations from a re-analysis of the deposited data

Results flagged for a closer look

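The butyrate effect differed between cells without and cells with Mki67 or Top2a UMIs for 17 mitoribosomal genes, by the interaction term of an edgeR quasi-likelihood fit over the 8 sums with library as a term. Values are the butyrate effect in cells without these UMIs minus that in cells with them, on the log2 scale, as estimated in this joint fit. The CPM of each class come from a separate fit with its own scaling, so differences taken from them need not equal these values. These counts depend on the scaling, and with library totals alone 14 large-subunit and 13 small-subunit genes were above 0 and 4 and 0 below. No share over all genes was taken for this term with library totals. Under TMM the difference was above 0 for Mrps22 (0.76), Mrps10 (0.58), Mrps28 (0.58), Mrpl36 (0.41), Mrpl17 (0.39), Mrpl20 (0.38), Mrpl12 (0.38), Mrpl42 (0.31), Mrps15 (0.28) and Mrpl23 (0.25). It was below 0 for Mrpl9 (-0.64), Mrpl14 (-0.56), Mrpl24 (-0.56), Mrpl32 (-0.53), Mrps9 (-0.41), Mrpl58 (-0.38) and Mrps16 (-0.25). Mrps22 was at 12.2, 13.7, 19.8 and 24.4 CPM in cells without and 20.5, 20.9, 20.002 and 20.3 CPM in cells with these UMIs, both control libraries first. Mrps10 was at 22.8, 28.0, 51.4 and 41.1 CPM against 41.1, 45.4, 51.0 and 49.3 CPM. Over 6 alternatives (4 with a library left out, thinning to 4000 UMIs, library totals alone), Mrpl20 and Mrpl12 passed in 6, Mrpl32 and Mrpl24 in 5, and Mrpl14 and Mrpl9 in 4. Mrpl17, Mrpl36, Mrpl23 and Mrps28 passed in 3, Mrpl42, Mrpl58, Mrps10, Mrps22 and Mrps15 in 2, Mrps16 in 1 and Mrps9 in 0. In cells without these UMIs, depth before thinning also differed between groups, at a median of 13169 and 13230 UMIs per control cell but 20777 and 19272 per butyrate cell, and its part in these differences was not tested.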

How the results depend on the processing

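Both subunits kept more genes higher than lower and a median above 0 in all 15 alternatives, with 22 to 34 higher, 3 to 14 lower and medians of 0.07 to 0.31 for the large subunit, and 11 to 19 higher, 1 to 9 lower and medians of 0.042 to 0.27 for the small. The call was the same in all 15 for 33 genes that rose and 3 that fell, and in the 14 other than library totals for 47 that rose, 3 that fell and 5 uncalled. No called gene changed sign except 8 with library totals. With the mouse as a replicate block the counts stayed at 34 and 4 for the large and 19 and 2 for the small subunit and all 78 calls were the same, while the median of the assembly factors was 0.139. The pairing thus changed no call of a member. With 2 libraries per group, a library left out leaves 1 in its group, assumed to vary like the other group. Mrps2, the member with the fewest UMIs, had the largest standard error of the 78 (0.072). The causes of the changes below were not tested.

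With library totals alone the large subunit had 22 higher and 14 lower (median 0.0704) and the small 11 higher and 9 lower (median 0.0422). Of the other subunits 1 was lower (median -0.014). Assembly factors had 5 higher and 10 lower (-0.0617), translation factors a median of -0.0686, synthetases 0 and 12 (-0.226), transcription and processing genes 2 and 10 (-0.204), mitochondrially encoded genes 0 and 12 (-0.355), and regulators a median of -0.382. Single genes that turned below 0 were Mrpl58 (-0.0109), Mrpl30 (-0.0126), Mrpl45 (-0.0297), Mrpl21 (-0.0433), Mrpl35 (-0.0642), Mrpl37 (-0.0793), Mrpl47 (-0.0946), Mrpl11 (-0.129), Mrpl38 (-0.146), Mrpl19 (-0.193), Mrpl32 (-0.196) and Mrpl52 (-0.197). So did Mrps31 (-0.0285), Mrps21 (-0.0392), Mrps2 (-0.0928), Mrps22 (-0.163), Mrps30 (-0.169), Mrps9 (-0.182), Gadd45gip1 (-0.014) and Chchd1 (-0.118). Cells without Mki67 and Top2a UMIs then had 2 small-subunit genes lower. Cells with them had 21 higher and 11 lower in the large and 11 and 9 in the small subunit. The difference between the classes was above 0 for 14 large-subunit and 13 small-subunit genes and below 0 for 0 of the small. No share over all genes was taken for these class counts with library totals.

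With a mitochondrial limit of 5% the large-subunit median was 0.219, 4 small-subunit genes were lower, and the medians were 0.106 for the other subunits, 0.0568 for assembly factors (3 lower) and 0.0875 for translation factors. Mitochondrially encoded genes had 2 higher and 2 lower (median 0.0171). Mrpl11 (-0.0134), Mrpl38 (-0.0478), Mrpl19 (-0.0795), Mrpl32 (-0.0214), Mrpl52 (-0.0501), Mrps22 (-0.0117) and Mrps9 (-0.00174) turned below 0. Median shares of a cell's UMIs were 0.480% in control and 0.514% in butyrate for the large and 0.257% and 0.272% for the small subunit.

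With every cell thinned to 8000 UMIs 1 small-subunit gene was lower, all 5 other subunits were higher (median 0.241), assembly factors had 2 lower (0.143) and translation factors 3 lower (0.198). Synthetases had a median of 0.0879, transcription and processing genes 5 higher and 2 lower (0.0784), mitochondrially encoded genes a median of -0.0969 and regulators 3 lower (-0.0837). Mrpl32 (-0.151) and Mrps30 (-0.0507) turned below 0, and Mrps15 (0.064), Mrps5 (0.0131) and Mrps28 (0.0536) above. Butyrate median shares were 0.481% and 0.25%. With cells thinned to 4000 UMIs, 3 large-subunit and 2 small-subunit genes were lower in cells without the cycling transcripts and 1 small-subunit gene in cells with them. The difference between the classes was then below 0 for 0 large-subunit genes, and above 0 for 2 and below 0 for 1 of the small.

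DESeq2 gave 2 assembly factors lower (median 0.143), 1 synthetase higher, 4 transcription and processing genes higher and 1 lower (median 0.000738), and a median of -0.151 for mitochondrially encoded genes. With genes of at least 1 UMI the medians were 0.124 for assembly factors and -0.170 for mitochondrially encoded genes, and Mrpl19 (-0.00735), Mrpl32 (-0.0112) and Mrpl52 (-0.0118) turned below 0. With at least 50 UMIs the medians were 0.144, 0.00168 for transcription and processing and -0.15. Without a mitochondrial limit they were 0.1505, 0.00874 and -0.218 (0 higher, 11 lower), with Mrps15 at 0.00835. Without the 2% of cells with most UMIs they were 0.144, 0.0155 and -0.161 (0 higher), with Mrpl53 at 0.00372 and Mrps15 at 0.000447. Without the mitochondrially encoded genes the assembly median was 0.139.

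Leaving out each library in turn gave 2 to 4 small-subunit genes lower, 3 to 6 assembly factors lower (median 0.093 to 0.154), and a median of 0.0907 to 0.169 for translation factors. Synthetases had 1 to 3 higher (-0.0649 to 0.0252), transcription and processing genes 2 to 4 lower (-0.0082 to 0.037), mitochondrially encoded genes 0 to 1 higher (-0.195 to -0.126) and regulators 3 to 4 lower. Single genes ranged over 0: Mrpl11 from -0.00252 to 0.138, Mrpl19 from -0.038 to 0.0415, Mrpl32 from -0.0412 to 0.0366, Mrpl52 from -0.0565 to 0.0611, Mrpl53 from -0.0921 to 0.0279, Mrpl44 from -0.0729 to 0.00202, Mrps22 from -0.0352 to 0.104 and Mrps9 from -0.017 to 0.0414. In cells with the cycling transcripts 1 to 3 large-subunit and 1 to 2 small-subunit genes were lower. The difference between the classes was above 0 for 3 to 4 large-subunit and 0 to 2 small-subunit genes, and below 0 for 3 to 5 and 0.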
